A study of Mus musculus with 10 samples.

Results

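Transcripts of 10 genes that mark ganglion cells other than the direction-selective kind were followed in sorted direction-selective ganglion cells, 1 library at a time. The 10 genes, Opn4, Eomes, Tbx20, Tbr1, Foxp1, Foxp2, Spp1, Irx3, Irx4 and Pvalb, were taken by symbol from a table of 23258 gene symbols, and all 10 were found there. The question was whether the sorted cells carried transcripts of intrinsically photosensitive, alpha, Foxp2 and other subtypes, and whether this differed with Satb1 genotype.

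The libraries came from retinal cells of C57BL/6 mice at postnatal day 6, sorted for the green fluorescent protein of the Hb9-GFP reporter, which labels ON-OFF direction-selective ganglion cells tuned to one direction of motion. There were 5 knockout libraries (Satb1-/- with Hb9-GFP) and 5 wild-type libraries (Hb9-GFP with intact Satb1), so the reporter is shared by both groups, and the replicates of a genotype came from different litters. RNA of about 1000 cells per sample was amplified before sequencing. The labels do not say which part of Satb1 is removed.

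Ganglion cells are the output neurons of the retina and fall into many subtypes that differ in dendrite shape, response to light and target in the brain. Intrinsically photosensitive cells carry their own photopigment, melanopsin, and drive the daily clock and the pupil reflex. Alpha cells have large bodies and thick axons. A subtype is usually recognised by a transcription factor or a neurochemical marker, and in young neurons such markers are often shared by several subtypes.

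Levels are given in TPM, a unit of relative transcript abundance that is scaled for transcript length and library total and so can be set beside each other between genes. A library that holds a transcript is described here as having at least 1 TPM. In a sorted pool, fewer cells of a type and less RNA per cell cannot be told apart, and a marker made by another subtype in the sort cannot be told apart from the same marker made by the direction-selective cells.

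Facts of the whole data set bear on all values below. Between 10073 and 12230 genes reached 1 TPM in knockout libraries and between 11119 and 12555 in wild-type libraries. Satb1 itself stood at 24.1 to 170 TPM in knockout and 38.6 to 414 TPM in wild-type. Because the labels do not state the deleted part, this gene-level value checks the genotype only weakly. On the first principal component, which held 32.9% of the variance, knockout 4, knockout 5 and wild-type 5 stood apart from the other 7 libraries, and the share of TPM held by ribosomal protein genes was 12.2% to 13.7% in those 3 and 3.87% to 8.03% in the others. Pan-ganglion cell markers were abundant throughout, with the neurofilament gene Nefl at 6567 to 94381 TPM in knockout and 6422 to 19151 TPM in wild-type. Depth is unknown because TPM keeps no counts. A listed 0 need not mean absence, since 8 of the 1100 most abundant genes (median over libraries of 100 TPM or more) had a 0 in some library.

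Opn4, Eomes and Tbx20 are all tied to photosensitive ganglion cells, so the 250 bases before their annotated starts are shown for the reader to compare. Sequences are from RefSeq on GRCm38.p6, the assembly behind mm10, written 5′ to 3′ on the gene's own strand. Capitals mark GTGTGA or its reverse complement TCACAC, the core that T-box proteins such as Eomes and Tbx20 bind, and TAAT or its reverse complement ATTA, the core of many homeodomain sites.
Opn4, chr14:34600143-34600392, minus strand: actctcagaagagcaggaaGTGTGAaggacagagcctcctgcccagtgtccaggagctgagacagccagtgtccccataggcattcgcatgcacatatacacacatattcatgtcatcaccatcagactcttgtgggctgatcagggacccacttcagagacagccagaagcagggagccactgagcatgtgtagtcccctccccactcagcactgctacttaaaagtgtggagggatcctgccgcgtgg
Eomes, chr9:118477939-118478188, plus strand: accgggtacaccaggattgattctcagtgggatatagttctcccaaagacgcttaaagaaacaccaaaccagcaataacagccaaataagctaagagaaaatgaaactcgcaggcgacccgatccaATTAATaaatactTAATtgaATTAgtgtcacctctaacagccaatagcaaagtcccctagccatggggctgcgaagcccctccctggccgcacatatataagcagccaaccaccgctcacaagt
Tbx20, chr9:24774304-24774553, minus strand: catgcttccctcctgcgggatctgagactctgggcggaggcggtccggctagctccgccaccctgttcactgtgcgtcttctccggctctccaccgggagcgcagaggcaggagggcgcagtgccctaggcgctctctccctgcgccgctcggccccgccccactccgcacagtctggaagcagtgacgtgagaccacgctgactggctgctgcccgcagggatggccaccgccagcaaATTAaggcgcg
The Opn4 window held 1 match to the T-box core and the Eomes and Tbx20 windows held 0, where 12.3% of 32851 such windows of all genes held at least 1. The homeodomain core was matched 4 times before Eomes, once before Tbx20 and 0 times before Opn4, and 54.9% of all windows held at least 1 match; overlapping matches on the 2 strands, as in ATTAAT, were counted separately. These are matches of letters and say nothing on their own about binding. Of the 10 genes, 9 had an entry; Foxp2 was not looked for elsewhere.

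Melanopsin transcripts were highest in 2 of the 5 knockout libraries and low or listed at 0 elsewhere. Opn4, which encodes melanopsin (chromosome 14, 34590618 to 34600142, minus strand, mm10), was at 0, 0, 5.40, 85.1 and 61.6 TPM in knockout 1 to 5, and at 8.02, 0, 5.04, 3.71 and 0.727 TPM in wild-type 1 to 5. Knockout 4 and 5 thus held more Opn4 than any other library, while both genotypes also had libraries listed at 0, and the groups overlapped. The log2 difference, knockout minus wild-type on the log2(TPM + 1) scale, was 1.26 (SE 1.15, 95% interval -1.15 to 3.66; limma, Benjamini-Hochberg adjusted p = 0.992). The direction rested on the 3 libraries that stood apart, because without them the difference was -1.11 (SE 0.97). An antisense gene overlaps Opn4 over 9051 bases, and whether strand was used in counting is not given, so reads of the pair cannot be told apart.

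Eomes and Tbx20, transcription factors tied to photosensitive ganglion cells, did not follow Opn4. Eomes, also called Tbr2, a T-box factor that mouse photosensitive ganglion cells need to form and persist (chromosome 9, 118478212 to 118486132, plus strand), was at 0.908, 7.87, 0.778, 0.303 and 0.600 TPM in knockout 1 to 5, and at 5.94, 3.35, 0.0730, 0.266 and 0.217 TPM in wild-type 1 to 5. Only knockout 2, wild-type 1 and wild-type 2 reached 1 TPM, and Opn4 was listed at 0 in knockout 2 and wild-type 2. The 2 libraries with the most Opn4 had 0.303 and 0.600 TPM of Eomes. The genotypes differed by 0.07 in mean log2(TPM + 1), well within the replicate spread (exact permutation test, two-sided, p = 0.976). An antisense gene overlaps Eomes over 574 bases. Eomes lay below the expression filter of the fit across genes, which required 1 TPM or more in 5 or more libraries.

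Tbx20, a second T-box factor found in mouse photosensitive ganglion cells (chromosome 9, 24718138 to 24774303, minus strand), was at 26.1, 1.80, 8.34, 5.31 and 0.423 TPM in knockout 1 to 5, and at 2.89, 2.21, 3.87, 12.2 and 0.128 TPM in wild-type 1 to 5. It passed 1 TPM in 8 of 10 libraries, every library but knockout 5 and wild-type 5, and was highest in knockout 1, where Opn4 was listed at 0. Its log2 difference was 0.56 (SE 0.86; limma, Benjamini-Hochberg adjusted p = 0.992). Across the 10 libraries the Pearson correlation of log2(TPM + 1) was -0.14 between Opn4 and Tbx20, given as a description of libraries that share their depth and amplification. All 3 photosensitive-cell genes reached 1 TPM together only in wild-type 1.

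**Figure D1:**
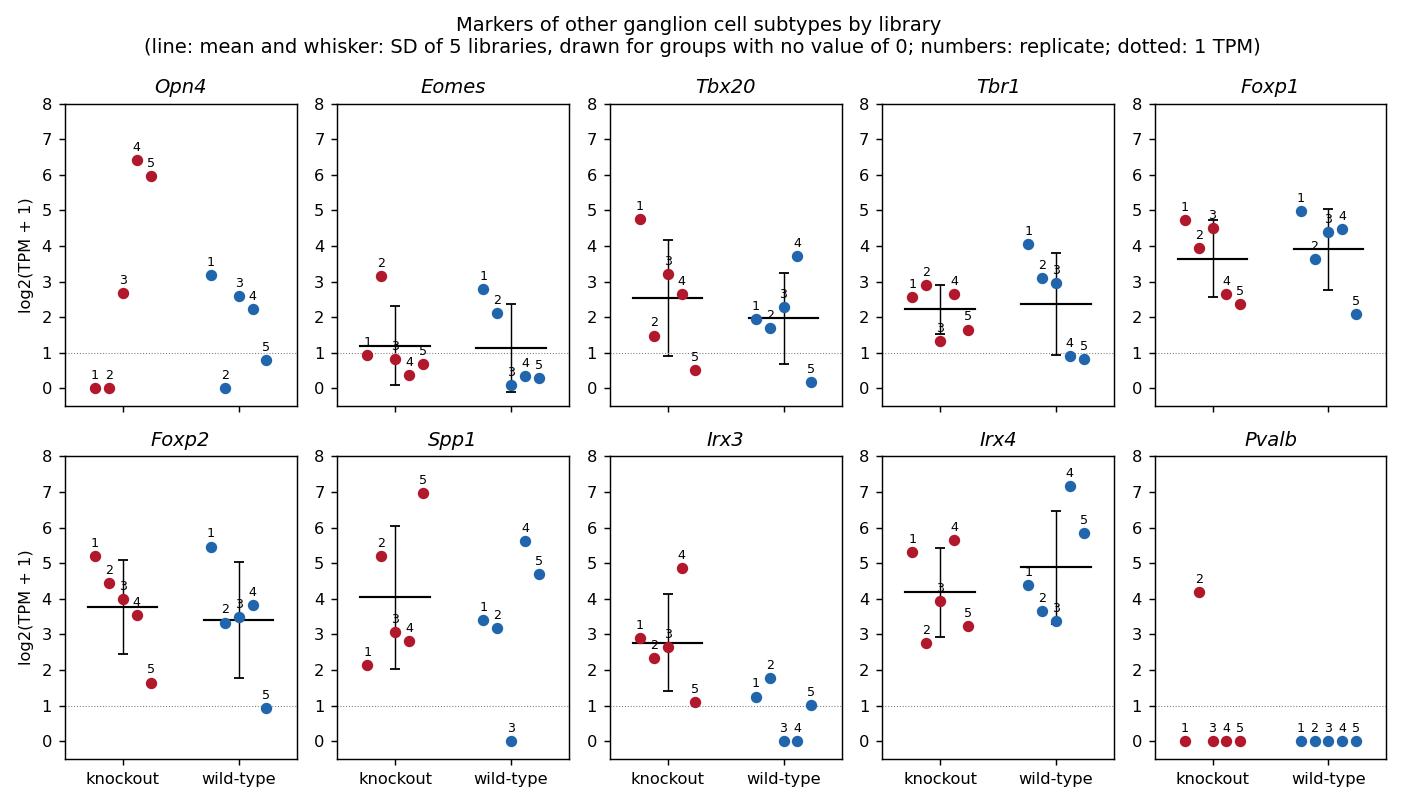
Levels of the 10 marker genes as log2(TPM + 1) in each of the 5 knockout (left, red) and 5 wild-type (right, blue) libraries, with the replicate number above each point; the line and whisker give the mean and SD of groups with no value of 0, and the dotted line marks 1 TPM. Opn4 reaches 85.1 and 61.6 TPM in knockout 4 and 5, Irx3 is above every wild-type library in 4 knockout libraries, and Pvalb is above 0 in knockout 2 alone.

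Tbr1 and the forkhead factors were found in both genotypes, with overlapping levels. Tbr1, a T-box factor of ganglion cells whose dendrites lie in the OFF layers in mouse, among them the J cells that express Jam2 (chromosome 2, 61802930 to 61814114, plus strand), was at 4.96, 6.52, 1.53, 5.25 and 2.15 TPM in knockout 1 to 5, and at 15.7, 7.57, 6.75, 0.892 and 0.769 TPM in wild-type 1 to 5. All knockout libraries lay inside the wild-type range. The means were 4.08 ± 2.14 TPM in knockout and 6.33 ± 6.11 TPM in wild-type (SD, n = 5 each), and the log2 difference was -0.15 (SE 0.78, 95% interval -1.77 to 1.47; limma, Benjamini-Hochberg adjusted p = 0.992). Its sign was positive without knockout 3 (0.07), wild-type 1 (0.28) or wild-type 2 (0.04). Jam2 averaged 13.7 ± 8.78 TPM in knockout and 28.4 ± 19.2 TPM in wild-type (SD, n = 5 each), a difference of -0.94 (SE 0.74; the same adjusted p).

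Foxp1 and Foxp2 mark the F cells, small and medium-sized ganglion cells of the mouse. Foxp2 (chromosome 6, 14901349 to 15441977, plus strand) was at 35.8, 20.8, 14.96, 10.7 and 2.13 TPM in knockout 1 to 5, and at 43.3, 9.08, 10.3, 13.2 and 0.889 TPM in wild-type 1 to 5. Foxp1 (chromosome 6, 98925338 to 99522721, minus strand) was at 25.6, 14.4, 21.9, 5.23 and 4.21 TPM in knockout 1 to 5, and at 30.6, 11.3, 19.8, 21.4 and 3.21 TPM in wild-type 1 to 5. Both genes were highest in the first replicate of each genotype and low in knockout 5 and wild-type 5, 2 of the 3 libraries that stood apart. The pair had the highest correlation of any 2 of the 8 genes in the fit (Pearson r = 0.87 over 10 libraries, a description). The log2 difference was 0.36 (SE 0.89, 95% interval -1.49 to 2.21) for Foxp2 and -0.27 (SE 0.78, 95% interval -1.90 to 1.37) for Foxp1 (limma, Benjamini-Hochberg adjusted p = 0.992 for each), and for Foxp1 and Tbr1 the sign turned after scaling the libraries to a common median, to 0.11 and 0.23. The Foxp2 difference was -0.26 when wild-type 5 was left out, and the Foxp1 difference was 0.048 without knockout 5 and 0.00025 without wild-type 1. A predicted gene overlaps Foxp1 on the same strand over 265238 bases, and reads of the overlap cannot be assigned from the deposited values. Foxp1 was 1 of 2 marker genes at or above 1 TPM in all 10 libraries.

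The alpha-cell marker Spp1 went with genes of another cell type. Spp1 encodes osteopontin, a secreted phosphoprotein that marks alpha ganglion cells in the adult mouse retina and is also made by activated microglia and macrophages (chromosome 5, 104435118 to 104441050, plus strand). It was at 3.39, 36.1, 7.38, 6.03 and 124 TPM in knockout 1 to 5, and at 9.58, 8.12, 0, 47.9 and 24.8 TPM in wild-type 1 to 5. It was highest in knockout 5, wild-type 4 and knockout 2. Its log2 difference was 0.66 (SE 1.05; limma, Benjamini-Hochberg adjusted p = 0.992), and was -0.07 without knockout 5 and -0.18 without wild-type 3.

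The summed level of 15 microglia and macrophage genes was 432, 3429, 1722, 505 and 3807 TPM in knockout 1 to 5, and 1293, 978, 40.5, 3081 and 889 TPM in wild-type 1 to 5. The same 3 libraries, knockout 5, knockout 2 and wild-type 4, were the highest for these genes and for Spp1, and wild-type 3 was the lowest for both. In wild-type 3 only 5 of the 15 genes reached 1 TPM, against 12 to 15 in each other library, and C1qb, Tyrobp, C1qa and Trem2 were listed at 0 there. Among 10789 genes compared, those whose levels ran most alike to Spp1 over the 10 libraries were C1qb, a complement subunit of microglia (Pearson r = 0.96), and Tyrobp, a microglial signalling adaptor (r = 0.94). The part of these cells in the Spp1 values was not tested. Kcng4, a potassium channel subunit that is another alpha-cell marker, was listed at 0 in 9 libraries and stood at 0.0952 TPM in wild-type 4; it was singled out after its values were seen.

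**Figure D2:**
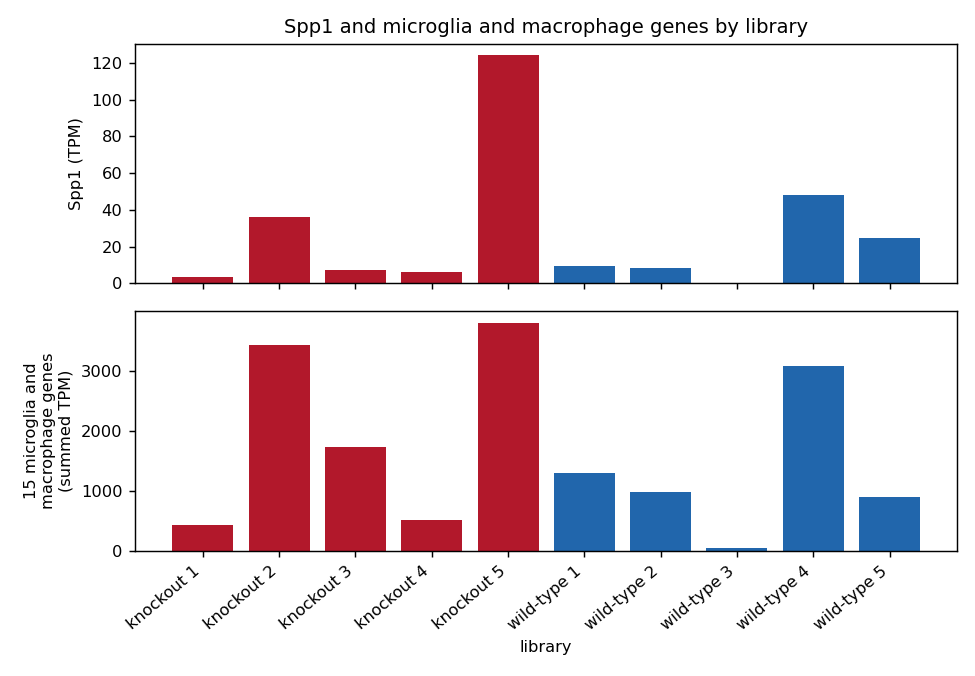
Spp1 in TPM (top) and the summed TPM of 15 microglia and macrophage genes (bottom) in the 5 knockout (red) and 5 wild-type (blue) libraries. Knockout 5, knockout 2 and wild-type 4 are the 3 highest in both panels, and wild-type 3 is the lowest in both, with Spp1 at 0.

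Parvalbumin was detected in a single library. Pvalb encodes a calcium-buffering protein found in several ganglion cell types of the adult mouse (chromosome 15, 78191114 to 78206400, minus strand). It stood at 17.4 TPM in knockout 2 and was listed at 0 in the other 4 knockout libraries and in all 5 wild-type libraries. With 9 libraries listed at 0 no fold is given. The two-sided exact permutation p was 1, the only value it can take with a single library above 0, so that test says nothing on genotype. Knockout 2 also held the highest level of Eomes, as given above.

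Irx3 was the only marker gene with an unadjusted limma p under 0.05, and its difference did not pass the test across all genes. Irx3 encodes an Iroquois homeodomain transcription factor (chromosome 8, 91798525 to 91802067, minus strand). It was at 6.39, 4.07, 5.22, 28.1 and 1.13 TPM in knockout 1 to 5, and at 1.38, 2.42, 0, 0 and 1.03 TPM in wild-type 1 to 5. Knockout 1 to 4 were above all wild-type libraries, and knockout 5 lay within the wild-type range. The log2 difference was 1.95 (SE 0.74, 95% interval 0.41 to 3.50), with an unadjusted limma p of 0.0155 and a Benjamini-Hochberg adjusted p of 0.992. The two-sided exact permutation p over all divisions of the libraries was 0.0238, where the smallest possible is 0.00794. It is 1 of 10 such tests, of which that of Pvalb had a fixed outcome. Among the tested genes, 3.49% had an exact permutation p under 0.05.

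The size of the Irx3 difference depended on the offset, since its levels are low: it was 3.37 with an offset of 0.1 TPM and 0.98 with 5 TPM. Without knockout 4, the library with most Irx3, it was 1.43, with an unadjusted limma p of 0.0555 and an exact permutation p of 0.0476. Without the 3 libraries that stood apart it was 1.86, with an exact permutation p of 0.0571 where the smallest possible is 0.0286. The antisense gene Irx3os overlaps Irx3 over 1653 bases, and the reads of the pair cannot be told apart where strand was not used. The genes most alike to Irx3 over the 10 libraries were Surf6, a nucleolar protein gene (Pearson r = 0.92), and Tfr2, a transferrin receptor gene (r = 0.91).

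Irx4 was the most abundant of the 10 genes on average. This Iroquois factor, known from chick to act on ganglion cell axon paths within the retina (chromosome 13, 73260479 to 73269608, plus strand), was at 38.6, 5.82, 14.4, 48.9 and 8.37 TPM in knockout 1 to 5, and at 19.8, 11.6, 9.32, 142 and 56.3 TPM in wild-type 1 to 5. Wild-type 4 and 5 were the highest and knockout 2 and 5 the lowest, with the genotypes overlapping. The means were 23.2 ± 19.4 TPM in knockout and 47.8 ± 55.9 TPM in wild-type (SD, n = 5 each), and the log2 difference was -0.70 (SE 0.83, 95% interval -2.44 to 1.04; limma, Benjamini-Hochberg adjusted p = 0.992). The difference was -0.13 when wild-type 4, the library with most Irx4, was left out. Wild-type 4 also stood alone on the second principal component, which held 13.0% of the variance. With Foxp1 it was at or above 1 TPM in all 10 libraries. The postsynaptic scaffold gene Shank1 (Pearson r = 0.95) and the kinase gene Mapk7 (r = 0.94) had the levels most alike to it. Irx3 and Irx4 did not run together over the libraries (r = 0.01).

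For the other genes in the fit, the most alike pairs over the 10 libraries were Bin1 (Pearson r = 0.91) and Ttc7 (0.89) for Opn4, Cables2 (0.91) and Slc25a37 (0.91) for Tbx20, and Sdhaf2 (0.96) and Scn7a (0.94) for Tbr1. Foxp1 was most like Tlk2 (0.98) and Fam188a (0.97), and Foxp2 most like Heg1 (0.98) and Igfbp5 (0.97). Bin1, an endocytosis and membrane-shaping gene, was at 314 and 225 TPM in knockout 4 and 5, the libraries with the most Opn4, and at 79.6 to 88.4 TPM in knockout 1 to 3 and 88.1 to 122 TPM in wild-type. These likenesses are descriptions over libraries that share their depth and amplification, chosen as the highest among 10789 genes.

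In the fit across genes, none of the 8 marker genes in the fit passed a Benjamini-Hochberg adjusted p under 0.05 in limma, where 0.0% of the 11744 tested genes did. At an unadjusted limma p under 0.05 there was 1 marker gene, Irx3, where 3.31% of tested genes passed; 0.741% of tested genes passed with a higher level in knockout and 2.57% with a lower one. None of the 10 genes had knockout libraries wholly above or below the wild-type libraries, which held for 0.502% of tested genes, among them 0.0766% with knockout above wild-type. On average 5 of the 8 stood higher in knockout and 3 stood lower, with a median difference of 0.46; over all tested genes the median was -0.31 and 32.6% were higher. After median scaling, which moved the median of all tested genes to 0.07, 7 were higher and 1 lower, and 53.9% of all tested genes were higher. The SE of a marker gene's difference ran from 0.74 to 1.15, against a median of 0.78 over all tested genes, so the intervals leave room for differences of several-fold in either direction for most of the 8.

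**Figure D3:**
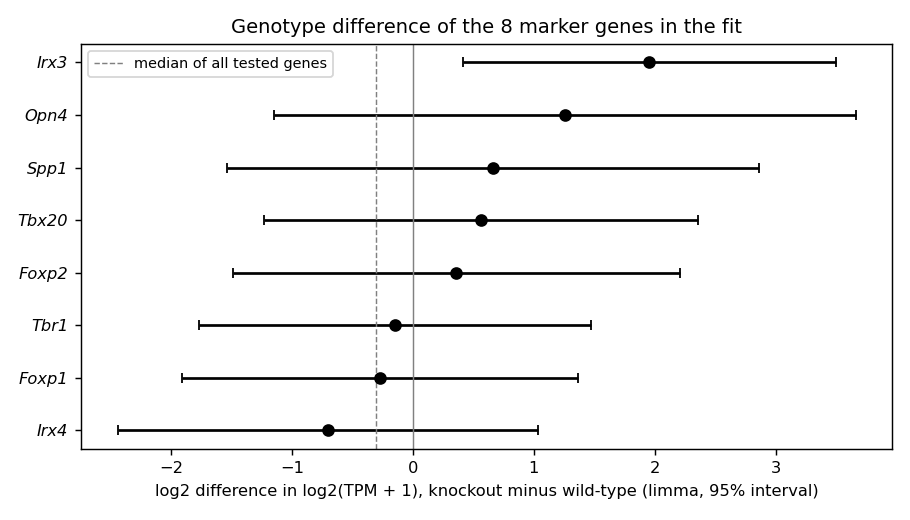
Differences in log2(TPM + 1), knockout minus wild-type, of the 8 marker genes that passed the expression filter, with 95% intervals from limma; the dashed line is the median of all tested genes at -0.31. The interval of Irx3, 0.41 to 3.50, is the only one of the 8 that does not include 0.

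Library by library, every sort held transcripts of several other-subtype markers. Of the 10 genes, 7, 9, 8, 8 and 7 reached 1 TPM in knockout 1 to 5, and 9, 8, 6, 6 and 4 in wild-type 1 to 5. Over all 23258 symbols, 10073 to 12230 reached 1 TPM in a knockout library and 11119 to 12555 in a wild-type library. In wild-type 5, the 4 of 10 stand beside 11429 of 23258 symbols. In knockout 2 and wild-type 1, the 9 of 10 stand beside 12230 and 12381 of 23258 symbols. Reaching 1 TPM is thus common. The counts were not tested against all symbols, and alone they do not set the marker genes apart from other genes. At 10 TPM the counts were 4, 4, 3, 4 and 2 in knockout and 4, 2, 2, 5 and 2 in wild-type. The share of all symbols at 10 TPM was not counted, so these counts are a description. For scale, the median over genes above 0 was 5.25 to 12.6 TPM in knockout libraries and 5.41 to 15.6 TPM in wild-type libraries. At 1 TPM, knockout 2 and wild-type 1 held the most marker genes, and wild-type 5 the fewest. The most abundant marker gene changed from library to library: it was Irx4, Spp1, Foxp1, Opn4 and Spp1 in knockout 1 to 5, and Foxp2, Irx4, Foxp1, Irx4 and Irx4 in wild-type 1 to 5.

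The summed level of the 10 genes was 142, 115, 79.9, 195 and 205 TPM in knockout 1 to 5, and 137, 55.7, 55.2, 241 and 88.1 TPM in wild-type 1 to 5, so the genotypes overlapped. A single gene held 60.6% of that sum in knockout 5 (Spp1), 58.8% in wild-type 4 (Irx4) and 63.9% in wild-type 5 (Irx4). For scale, 11 genes of direction-selective cells, Satb1 among them, summed to 509, 361, 263, 244 and 155 TPM in knockout 1 to 5, and to 1245, 1262, 1613, 813 and 731 TPM in wild-type 1 to 5. The marker sum was below the direction-selective sum in 9 of 10 libraries and above it in knockout 5, where Spp1 was 124 TPM and the microglia and macrophage genes were highest. The direction-selective list was chosen with its lower levels in knockout known, so the narrower gap in knockout libraries is a description. Rbpms, an RNA-binding protein gene made by nearly all ganglion cells, stood at 491 to 2978 TPM in knockout and 374 to 1767 TPM in wild-type.

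**Figure D4:**
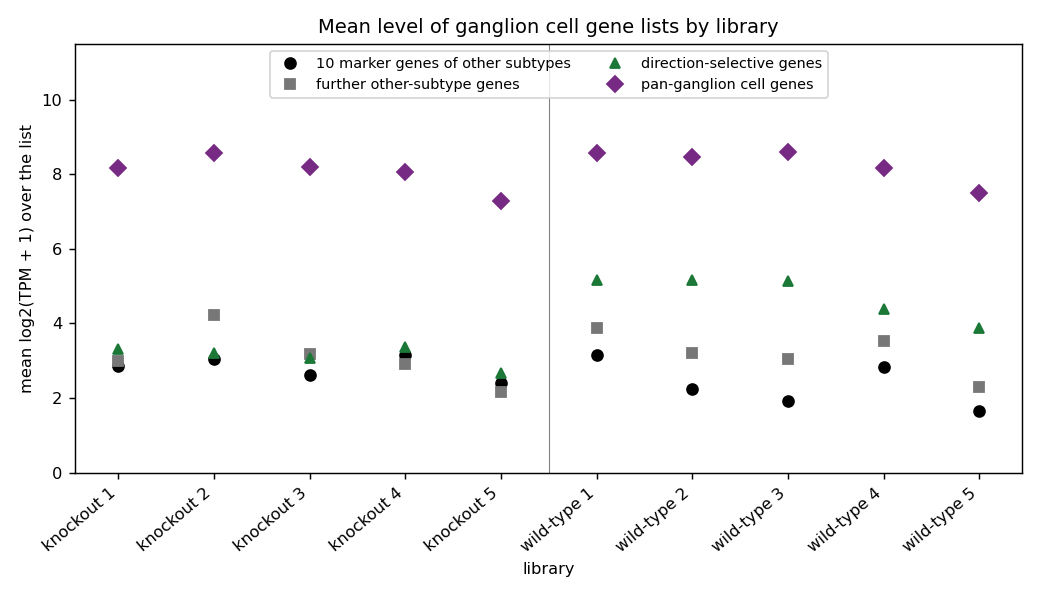
Mean log2(TPM + 1) over 4 gene lists in each library, knockout 1 to 5 on the left and wild-type 1 to 5 on the right. The 10 marker genes lie at 2.41 to 3.16 in knockout and 1.66 to 3.15 in wild-type, and the pan-ganglion cell genes at 7.28 to 8.57 in knockout and 7.51 to 8.61 in wild-type.

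A wider set of 24 genes of other ganglion cell subtypes also showed no gene past the test. None of its 16 genes in the fit passed limma at a Benjamini-Hochberg adjusted p under 0.05, and none had an unadjusted p under 0.05; 6 were higher and 10 lower in knockout on average, or 9 and 7 after median scaling. Among the more abundant was the transcription factor gene Ebf3, at 62.5 to 856 TPM in knockout and 22.5 to 827 TPM in wild-type. The growth factor gene Igf1 was at 94.2 to 671 TPM in knockout and 137 to 524 TPM in wild-type. The adipose and neuronal membrane protein gene Tusc5 was at 0.891 to 77.2 TPM in knockout and 6.54 to 200 TPM in wild-type. The neuropeptide gene Tac1 was at 9.10 to 189.5 TPM in knockout and 25.1 to 111 TPM in wild-type. The neuropeptide gene Adcyap1 was at 3.70 to 35.6 TPM in knockout and 3.01 to 65.9 TPM in wild-type, and the protease inhibitor gene Serpine2 at 20.6 to 77.2 TPM in knockout and 11.98 to 76.9 TPM in wild-type. In each of these genes the genotypes overlapped.

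Relatives of the marker genes were also present. Of 10 relatives in the Iroquois, forkhead P and T-box families 7 entered the fit, 2 higher and 5 lower in knockout on average, or 3 and 4 after median scaling, and none passed limma at a Benjamini-Hochberg adjusted p or an unadjusted p under 0.05. The Iroquois gene Irx6 was at 1.83 to 25.4 TPM in knockout and 11.0 to 39.5 TPM in wild-type, a log2 difference of -1.54 (SE 0.78; adjusted p = 0.992), opposite in sign to that of Irx3. Irx5 was at 1.79 to 48.5 TPM in knockout and 2.80 to 59.8 TPM in wild-type, and Irx2 at 0.103 to 12.7 TPM in knockout and 2.99 to 27.7 TPM in wild-type. Foxp4 was at 4.06 to 123 TPM in knockout and 16.1 to 67.4 TPM in wild-type. The T-box gene Tbx2 was at 5.67 to 44.0 TPM in knockout and 6.32 to 48.6 TPM in wild-type, while Tbx3, Tbx5 and Tbx21 stayed at or below 8.03 TPM in knockout and 10.7 TPM in wild-type.

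Markers of other retinal cells were read in the same libraries. The 10 Muller glia genes summed to 209 to 7882 TPM in knockout, highest in knockout 5, and to 400 to 658 TPM in wild-type. The 12 bipolar genes summed to 107 to 355 TPM in knockout and 169 to 349 TPM in wild-type. The 11 cone genes summed to 9.28 to 205 TPM in knockout and 41.2 to 340 TPM in wild-type. The 6 horizontal cell genes summed to 30.4 to 49.4 TPM in knockout and 15.7 to 177 TPM in wild-type. The 10 amacrine genes summed to 225 to 491 TPM in knockout and 156 to 787 TPM in wild-type. From 3 to 7 of them reached 1 TPM in a knockout library and 5 to 6 in a wild-type library. Gad1, the enzyme that makes GABA in inhibitory amacrine cells, stayed at or below 0.973 TPM in knockout and 0.0353 TPM in wild-type. It was picked after its values were seen and does not stand for the rest of the list. The 6 starburst amacrine genes summed to 0.397 to 14.9 TPM in knockout, highest in knockout 1, and 0.176 to 7.56 TPM in wild-type. Among them Chat was listed at 0 in all libraries but wild-type 5, where it was at 1.68 TPM. Chat too was picked after its values were seen and does not stand for the rest of its list. The 14 rod genes summed to 298, 73.8, 558, 497 and 35.7 TPM in knockout 1 to 5. In wild-type 1 to 5 the sums were 16.5, 17.8, 19.0, 502 and 647 TPM. Of the 10 rod genes in the fit, 9 stood higher in knockout on average, none past the test, where 32.6% of all tested genes were higher. After median scaling it was again 9, beside 53.9% of all tested genes. The rod genes were not tested as a set. The 12 endothelial and pericyte genes summed to 4.04, 8.17, 1.75, 92.4 and 4.25 TPM in knockout 1 to 5, and 74.4, 54.5, 58.1, 31.2 and 27.3 TPM in wild-type 1 to 5. Knockout 4 was the only knockout library above any wild-type library, through Egfl7 at 91.2 TPM. The mean log2(TPM + 1) over the list, 0.159 to 0.664 in knockout and 0.780 to 1.80 in wild-type, did not overlap. Most of the list lay near the floor, with 2 of 12 genes in the fit and 2 under 1 TPM in every library. Of the other lists only the direction-selective one did not overlap, at 2.67 to 3.37 in knockout and 3.89 to 5.16 in wild-type. That list holds Satb1 and was chosen with its lower levels in knockout known, so its separation is no independent result. The difference of the endothelial and pericyte list was not tested. Of the 2 genes in the fit, the pericyte gene Rgs5 had an unadjusted limma p of 0.00581 (log2 difference -2.86, SE 0.93; Benjamini-Hochberg adjusted p = 0.992), although wild-type 3 was listed at 0. The part of these cells in the marker genes' values was not tested.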

How the data were processed

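The authors deposited 1 table of log10(TPM + 1) values for 23746 gene entries in 10 libraries. Base and offset were inferred from the numbers themselves: 10 raised to the value, minus 1, gave 1000000 TPM in every library. Per the submitters' processing notes, the tools were Cufflinks and TopHat2 2.0.10, with the build mm10; counting, annotation, filters and strandedness are not stated in what was used here. Per the labels' protocols, cDNA was amplified, which adds variation between libraries and can make a transcript's share depend on its length and base composition.

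Entries with a number for a symbol (26, with 0.0438% to 0.198% of a library's TPM) were left out, and 240 symbols on more than 1 line were summed. Values were analysed as log2(TPM + 1). The 11744 genes that reached 1 TPM in 5 or more libraries were tested by limma 3.58.1 (R 4.3.3) on genotype alone, with a variance trend and Benjamini-Hochberg adjustment at 0.05. Single marker genes had a two-sided exact permutation test over all divisions of the 10 libraries. In data simulated for this comparison (11744 genes, 10 simulations, changed genes drawn from those with a mean log2 value above 4), limma recovered 0% of genes changed 2-fold, 8.4% of those changed 4-fold, 41.2% at 8-fold and 77% at 16-fold. Of the marker genes only Irx4, at a mean log2 value of 4.53, lay above that level. The rates therefore do not describe the other marker genes, of which Foxp1 was next at 3.78. The simulated noise was drawn independently for each value, without shifts shared by a library. Coordinates are from GENCODE M21 (mm10). Named genes are the 10 members, the 2 genes most alike to each member in the fit, and the most abundant genes of each marker list. Gad1, Chat, Kcng4, Jam2, Rbpms, C1qa, Trem2, Rasgrp1, Zic1, Trpc7 and Trpc6 were added after their values were seen. Some genes that this rule names are not reported here. The members and lists were chosen with earlier results of these data known. Samples of a genotype came from different litters, per the series' design text.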

Additional observations from a re-analysis of the deposited data

Results flagged for a closer look

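In groups of 5 libraries, 2 values lay far from the rest of their group, with a gap to the nearest library above 0.71 of the group's range on the log2(TPM + 1) scale. Eomes was at 7.87 TPM in knockout 2, a gap of 0.801 of the range, against 0.303 to 0.908 TPM in the other knockout libraries. Pvalb was at 17.4 TPM in knockout 2 and listed at 0 in the other knockout libraries, a gap of 1 of the range. A total of 19 groups had any spread, and for normally distributed values a gap of this size arises by chance in about 1 in 20 groups. That rate does not hold for Pvalb in knockout. With 4 of its libraries listed at 0, the gap is 1 of the range whatever the level in the remaining library. Both belong to knockout 2, where 9 of the 10 marker genes reached 1 TPM and the 15 microglia and macrophage genes summed to 3429 TPM.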

How the results depend on the processing

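Each of the 8 marker genes in the fit was refitted under 20 alternatives, and no alternative brought any of them past a limma Benjamini-Hochberg adjusted p under 0.05 (0.651 to 1 for Irx3). The count of genes past that threshold over all genes was 0 at first, with 389 at an unadjusted p under 0.05. It was 3 with library weights, 1 without the variance trend, and 0 to 1 on leaving out each library in turn (1 without wild-type 3, 4 or 5); none of these genes was a marker gene. The differences of Irx3 (0.98 to 3.37), Tbx20 (0.004 to 1.07) and Irx4 (-1.08 to -0.13) kept their sign under all 20, and Irx3 had an unadjusted limma p under 0.05 in 19 of 20. After median centring Tbr1 was at 0.23 and Foxp1 at 0.11, and after quantile normalization at 0.23 and 0.17, turned round from -0.15 and -0.27. Leaving out each library in turn gave ranges that cross 0 for Tbr1 (-0.53 to 0.28), Foxp1 (-0.73 to 0.048), Foxp2 (-0.26 to 0.89) and Spp1 (-0.18 to 1.22). Leaving out knockout 4, knockout 5 and wild-type 5, an alternative chosen after seeing the data, put Opn4 at -1.11 and Foxp1 at 0.028. The cause was not tested. At a detection level of 5 TPM, 6 marker genes in place of 8 reached it in at least 5 libraries. Replicate numbers were not taken to pair the samples: the correlations of same-numbered deviations were 0.22, 0.07, 0.13, -0.03 and 0.36 for numbers 1 to 5, not all above 0.1, and, as a hint from the data and not the design, 3 of 5 knockout libraries matched their own number best. With a replicate block limma called 0 genes, with 830 at an unadjusted p under 0.05, and 0 marker genes. Unknown depth means that a listed 0 sets no upper limit.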

Other observations

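Rasgrp1, a guanine nucleotide exchange factor gene that marks some photosensitive ganglion cells in mouse, stood at 6419 TPM in knockout 2, and at 0 to 0.426 TPM in the other knockout libraries and 0.0113 to 4.601 TPM in wild-type. Opn4 was listed at 0 in knockout 2, and the source of the Rasgrp1 value in that library was not tested. Zic1, a zinc finger transcription factor gene, stood at 55.2 TPM in knockout 5, and at 1.18 to 6.27 TPM in the other knockout libraries and 1.13 to 6.88 TPM in wild-type. Trpc7, a cation channel gene of the melanopsin pathway, reached 10.9 TPM in wild-type 1 and 2.08 TPM in wild-type 2, and stayed at or below 0.169 TPM in the other 8 libraries. Trpc6, from the same wider set, was instead highest in knockout 2 at 6.36 TPM. Its level was 1.92 TPM in wild-type 1, 1.52 TPM in wild-type 2 and under 1 TPM in the remaining libraries. Rasgrp1, Zic1, Trpc7 and Trpc6 were picked after their values were seen.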
